A study of Saccharomyces cerevisiae with 11 samples.

Results

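Abf1 (ARS-binding factor 1) is an essential DNA-binding protein of budding yeast and belongs to the general regulatory factors, which keep promoters free of nucleosomes. It binds a consensus made of a pair of short half-sites on either side of a variable spacer. Its sites lie upstream of many genes of translation, mitochondrial biogenesis and metabolism, and loss of the protein lets nucleosomes move over some of these promoters. The comparison described here asks which gene classes change within little more than an hour of its removal. The members were chosen by their labels: 3 libraries named no Abf1 and 2 named wild-type Abf1, 5 of the 11 RNA-seq libraries of the series.

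All 5 libraries came from clone A9 of ABF1-aa-V5, an anchor-away strain in which the tagged chromosomal Abf1 leaves the nucleus when rapamycin is added, so the controls lost that copy too. The no Abf1 cells carried the empty plasmid pRS315 and were treated for 75 min (replicates 1 to 3). The wild-type Abf1 cells carried pRS315 with wild-type ABF1, and were treated for 60 min in the first library and 75 min in the second. Rapamycin was at 8 µg/ml in both groups. Cells grew to log phase without leucine, and independent transformants of the single clone served as replicates. The 75 min wild-type library shares a batch date with the no Abf1 libraries. The 60 min library alone has another date, so time and batch cannot be told apart. Values of the wild-type libraries are given below with the 60 min library first.

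The libraries held 1015399 to 1130972 counts in no Abf1 cells and 1359428 to 1422833 in wild-type Abf1 cells. Small RNAs took 17.5 to 18.7% of the counts in no Abf1 cells, against 22.6% in the 60 min and 12.3% in the 75 min wild-type library. ABF1 itself had 344, 405 and 379 TMM-normalised CPM (counts per library scaled to a common depth) in no Abf1 cells, against 314 and 364 CPM in wild-type Abf1 cells, and was not called different (adjusted p = 0.713). The counts do not separate the tagged copy from the plasmid copy. The labels name the strain BY4741, which is MATa and lacks MET17. The counts went against that name: the α-cell genes MF(ALPHA)1 and STE3 had 241 to 297 and 194 to 224 counts in no Abf1 cells, the a-cell genes STE2, MFA1 and MFA2 had at most 6 counts in any of the 5 libraries, and MET17 had 131 to 197. FPR1, the rapamycin-binding protein that anchor-away strains usually lack, had 2 to 9 counts. The 5 libraries were alike in this, and the strain is called here by the name of the anchor-away clone.

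A feature was tested if it had at least 10 counts in at least 2 of the 5 libraries, and called if its adjusted p in edgeR's quasi-likelihood test was under 0.05. Of 5328 features tested, 1280 were called, or 24%. No Abf1 cells were lower for 744 (14%) and higher for 536 (10.1%). The falls were deeper than the rises: 422 features fell and 222 rose by at least 2-fold, and 114 fell and 42 rose by at least 4-fold. The median log2 fold change was −1.12 over features that fell, 0.91 over those that rose and 0.01 over all features tested. Which wild-type library is used matters more for the rises. Leaving out the 75 min library gave 98 rises and 439 falls, and leaving out the 60 min library, which keeps the comparison within 1 batch date, gave 454 rises and 590 falls. Leaving out no Abf1 replicate 1, 2 or 3 gave 356, 235 and 238 rises and 550, 472 and 480 falls. When TMM was computed only on coding genes without an Abf1 consensus match, the split was 394 rises to 887 falls.

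Promoters were searched on both strands of the R64 genome for the 13-base Abf1 consensus within 400 bp upstream of the annotated gene start. A match was present at 948 of 6002 nuclear protein-coding genes (15.8%). The windows below show a match from gene classes described later, with 8 flanking bases on each side. Capitals mark the half-sites, and the lower-case letters between them are the spacer. Each window is written 5′ to 3′ on the strand of the match, and lies between genes. They are shown because the same short pattern stands before genes of very different function that fell together and, in the last 3 windows, before genes that rose.
DPS1 (aspartyl-tRNA synthetase), chrXII:111728-111756, minus strand: tctatgaaATCATcagtgACGagtacctt
TYS1 (tyrosyl-tRNA synthetase, shared with TFG1), chrVII:867637-867665, minus strand: attcgagcATCACtaagaACGgaactcga
SUP35 (translation release factor), chrIV:808132-808160, minus strand: aaagaaagATCATattatACGatgatgta
RPO31 (RNA polymerase III), chrXV:544503-544531, minus strand: ttattatcATCACtatatACGtgaatatc
TOM70 (mitochondrial import receptor), chrXIV:400680-400708, minus strand: tatacaatATCACtgtatACGatgaataa
SCL1 (proteasome), chrVII:475363-475391, minus strand: attatgatATCACaatagACGaagggcac
CCT5 (chaperonin), chrX:555746-555774, minus strand: tggcataaATCACtttacACGttctcgag
THR4 (threonine synthase), chrIII:216484-216512, minus strand: ttcgcacgGTCACtactcACGaggaggcg
HMG2 (HMG-CoA reductase), chrXII:1032323-1032351, plus strand: gaccattgATCGTtagagACGagcgcatt
SEC16 (COPII coat assembly, shared with ELP3), chrXVI:386769-386797, minus strand: aagtgatgATCACttataACGttgtgtta
ACS1 (acetyl-CoA synthetase), chrI:45312-45340, plus strand: tgaccccaATCATttgccACGgcatgtca
GDB1 (glycogen debranching enzyme), chrXVI:901665-901693, plus strand: ctcgggccATCATtgttaACGtaatattt
RPN4 (activator of proteasome genes), chrIV:417051-417079, plus strand: ctagaaccATCACtgtaaACGgctattag

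Genes with a match fell far more often than genes without one. Of 898 tested nuclear genes with a match, 410 fell (45.7%) and 36 rose (4.01%), with a median log2 fold change of −0.60. Of 4301 without a match, 327 fell (7.60%) and 493 rose (11.5%), with a median of 0.09. Matches stood before 55.6% of the genes that fell, 6.81% of those that rose and 17.3% of all nuclear coding genes tested. The number of genes with a match that fell was 319, 293, 303, 317 and 229 without no Abf1 replicates 1, 2 and 3, the 60 min and the 75 min wild-type library, in that order. The number of genes without a match that rose was 332, 220, 220, 377 and 88 in the same order. These matches are descriptions of sequence, not measured binding.

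The share of genes that fell varied with where the match lay. Among genes with 1 match, 57.4% of 258 fell when it was 101 to 150 bp from the gene start, 53.4% of 219 at 151 to 200 bp and 46.2% of 106 at 201 to 250 bp. It was 40% at 251 to 300 bp, 20.8% at 301 to 350 bp and 16.7% at 351 to 400 bp. Closer than 100 bp the share was low as well, with 4 of 23 genes at 51 to 100 bp and 1 of 10 at 1 to 50 bp. Rises ran the other way, at 0.388% of genes at 101 to 150 bp and 18.5% at 351 to 400 bp. Genes whose nearest upstream match lay beyond the window, at up to 600 bp, fell in 10.4% of 212 cases, near the 7.24% of genes whose nearest match was over 1000 bp away.

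**Figure D1:**
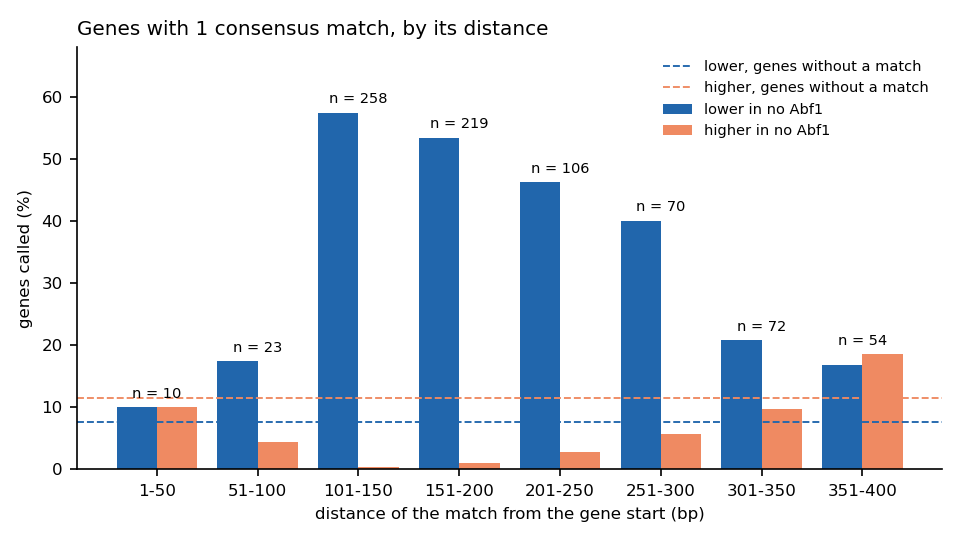
Percentage of genes called lower (blue bars) and higher (orange bars) in no Abf1 cells, among genes with 1 consensus match, by distance of the match from the gene start in bp; n is the number of genes and dashed lines give the same shares for 4301 genes without a match. The share of falls was 57.4% at 101 to 150 bp and 16.7% at 351 to 400 bp, where rises reached 18.5%.

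The shares on the 2 strands were close: 45.8% of 428 genes fell with the match on the gene's strand, and 45.6% of 384 with it on the other. Genes with 2 or more matches fell as often (45.3% of 86) as genes with 1 (45.7% of 812). Matches that also met a stricter form of the consensus stood before genes that fell in 52.5% of 408 cases, and the others in 38.9% of 404. Of 27 genes whose only match lay inside a neighbouring gene, 3 fell. By orientation of the neighbour, 206 of 363 genes fell (56.7%) when the upstream neighbour ran in the same direction, and 108 of 280 (38.6%) when the match was shared with a divergent neighbour.

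In 160 divergent gene pairs that shared a match, both genes fell in 36 (22.5%). In 54 (33.8%) 1 gene fell and the other was not called. In 849 pairs with no match the counts were 4 (0.471%) and 93 (11%), and 11 more pairs (1.3%) held 1 fall and 1 rise. TYS1 and TFG1, which encodes the large subunit of transcription factor TFIIF, shared a match and both fell. TYS1 had 63.1, 61.8 and 51.4 CPM in no Abf1 cells, against 250 and 258 CPM in wild-type Abf1 cells (log2 fold change −2.11 ± 0.25 (SE), adjusted p = 0.000756, edgeR). TFG1 had 95.2, 110 and 111 CPM without Abf1, against 161 and 172 CPM with wild-type Abf1 (log2 fold change −0.66 ± 0.16 (SE), adjusted p = 0.0147), and lost the call without no Abf1 replicate 1 or without the 75 min library. In the only pair sharing a match with opposite calls, the chaperonin gene CCT4 fell by 1.27 and its uncharacterised neighbour YDL144C rose by 0.68 on the log2 scale. YDL144C had 103, 98.3 and 95.6 CPM without Abf1, against 67.1 and 56.4 CPM with wild-type Abf1, and was no longer called without the 75 min library. The match lay 150 bp from CCT4 and 102 bp from YDL144C. SEC16 and ELP3, a subunit of the Elongator complex, shared a match 278 bp from SEC16. ELP3, 331 bp away, had 50.1, 45.9 and 47.3 CPM without Abf1, against 82.2 and 87.1 CPM with wild-type Abf1, and missed the threshold (adjusted p = 0.0882, edgeR). For PHB2, which encodes a mitochondrial prohibitin, the log2 fold change was −1.40 ± 0.24 with the match at 180 bp, while its partner NAS6, a proteasome assembly factor, had 0.47 at 288 bp (adjusted p = 0.0614, edgeR).

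Across gene classes, 49 lists were followed, and 43 had at least 3 called members. Genes named from a list were chosen among called genes whose groups did not overlap, so their separation is no result. All 536 rises and 742 of the 744 falls did not overlap. Of all 5328 features tested, 1508 lay below both wild-type libraries in every no Abf1 library, and 1537 lay above. Shares of a list that fell or rose are read against 14% and 10.1% of all features, and a split by match against the 45.7% and 7.60% of all nuclear genes with and without one that fell. In 20 of the 21 lists with at least 5 members of each kind, the median of members with a match was below that of members without. The exception was the large-subunit ribosomal proteins, at −0.67 and −0.69. Where a count of 0 is given for a list below, DESeq2 gave 0 too, and the count at an unadjusted edgeR p under 0.05 was also 0 unless stated. Counts after leaving out libraries are given in 1 order: without no Abf1 replicate 1, 2 and 3, then without the 60 min and the 75 min wild-type library.

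**Figure D2:**
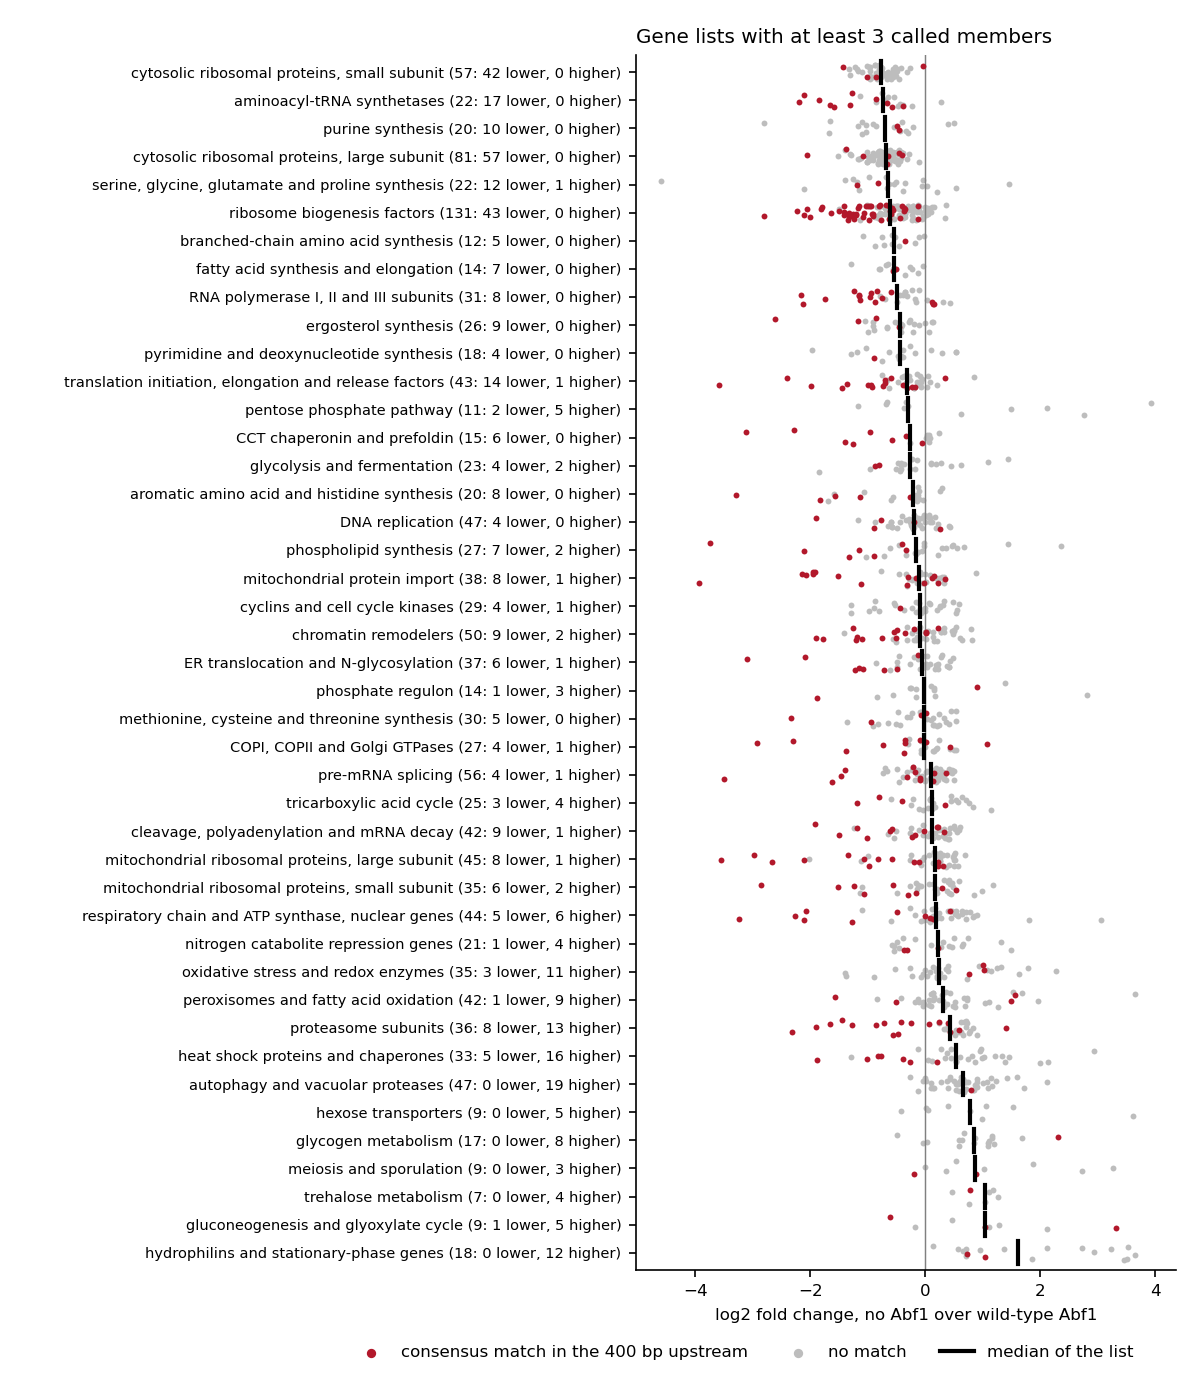
Log2 fold change of every tested member (points, red with a consensus match in the 400 bp upstream, grey without) of the 43 gene lists with at least 3 called members, sorted by list median (black bar), with the number tested and called beside each name. Small-subunit ribosomal proteins stood at a median of −0.77 and hydrophilins and stationary-phase genes at 1.61.

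**Figure D3:**
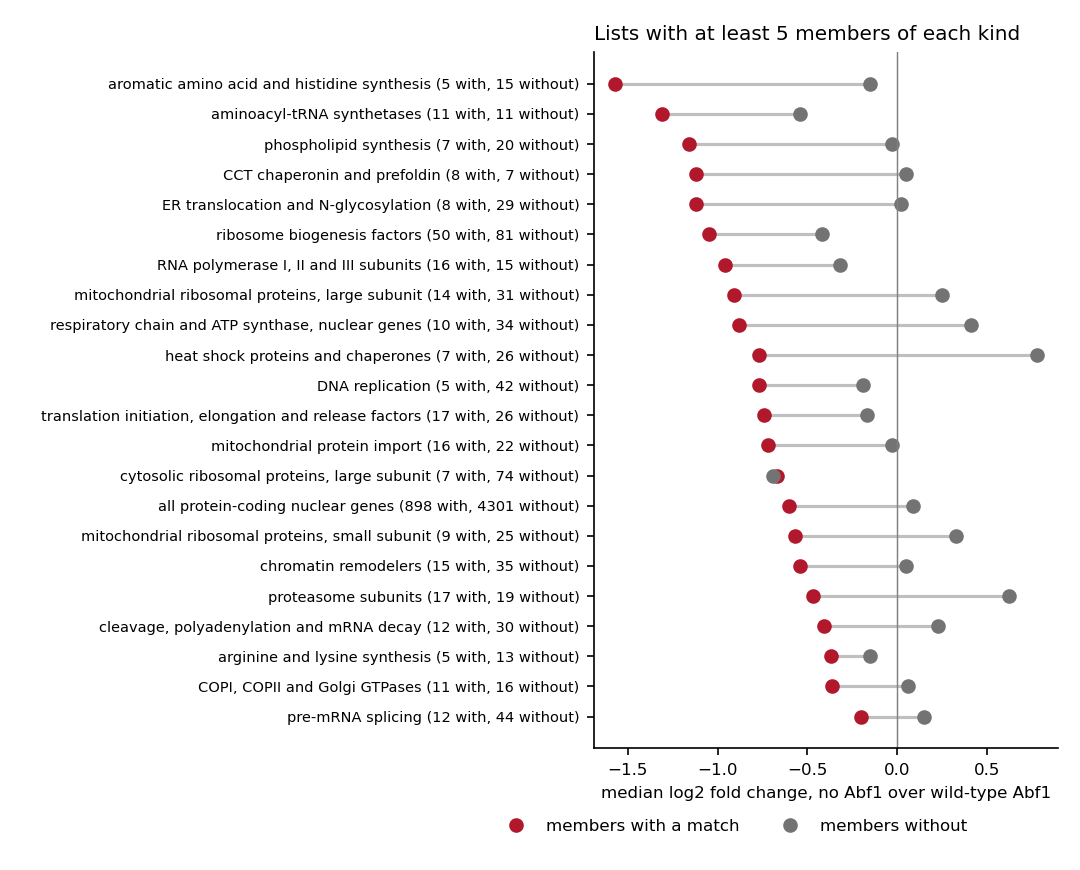
Median log2 fold change of members with (red) and without (grey) a consensus match in the 21 lists with at least 5 members of each kind, and in all nuclear coding genes. The proteasome list (subunits, RPN4, RPN14 and UMP1) had medians of −0.47 with a match and 0.62 without, while large-subunit ribosomal proteins had −0.67 and −0.69.

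Cytosolic ribosomal protein genes fell nearly as a block, and mostly without a match. Of 138 tested, 99 fell and none rose: 57 of 81 of the large subunit (median −0.68) and 42 of 57 of the small subunit (median −0.77). Of the 127 with no match, 91 fell. They made up 27.8% of the genes that fell without a match. The log2 fold changes were small and even, the quartiles of large-subunit genes being −0.89 and −0.56. RPL8B, with a match at 164 bp, had 445, 454 and 434 CPM in no Abf1 cells, against 1208 and 1111 CPM in wild-type Abf1 cells (log2 fold change −1.38 ± 0.17 (SE), adjusted p = 0.000756, edgeR). RPL4B, with no match in the window, had 175, 178 and 196 CPM without Abf1, against 504 and 459 CPM with wild-type Abf1 (log2 fold change −1.39 ± 0.22 (SE), adjusted p = 0.00158, edgeR). Lack of a match does not mean lack of binding: the paper states that Abf1 sites mapped in vivo need not hold the motif. It also states that genes without an Abf1 site can respond to Abf1 loss, and that total RNA after 75 min should include indirect effects. Which of these holds for the ribosomal protein genes was not tested. The groups did not overlap for RPL8B or RPL4B, as their choice required, and the fold changes were alike. RPP1A, which encodes a protein of the ribosomal stalk, fell most (−2.06 ± 0.36). The counts of falls were 42, 30, 26, 33 and 50 for the large subunit and 33, 21, 22, 22 and 32 for the small subunit with each library left out, no Abf1 replicates 1 to 3 and then the 60 min and 75 min library. Many of these genes have near-identical copies that share reads, so single copies are uncertain.

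Genes that build and supply the ribosome also fell, here more where a match was present. Among 131 ribosome biogenesis factors, 43 fell and none rose (median −0.61). Of the 50 with a match 33 fell (median −1.05), and of the 81 without a match 10 fell (median −0.42). DBP9, an RNA helicase of large-subunit assembly, had 35.1, 21.5 and 40.1 CPM in no Abf1 cells, against 118 and 150 CPM in wild-type Abf1 cells (log2 fold change −2.06 ± 0.37 (SE), adjusted p = 0.00309, edgeR). MTR4, the helicase that feeds the nuclear exosome, had 59.1, 65.6 and 69.9 CPM without Abf1, against 195 and 261 CPM with wild-type Abf1 (log2 fold change −1.82 ± 0.32 (SE), adjusted p = 0.00266). The count for this list depended on the library used as control, at 26, 19, 17, 54 and 9 with each library left out. It was thus 9 against the 60 min library and 54 against the 75 min library, and the list's median was −0.28 and −0.85 against those single libraries.

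Aminoacyl-tRNA synthetases, which charge tRNAs with amino acids, fell in 17 of 22 cases (median −0.73; 14, 14, 13, 16 and 10 with each library left out, the 75 min library last). Of the 11 with a match 10 fell (median −1.31), and of the 11 without 7 fell (median −0.54). DPS1 had 114, 113 and 102 CPM in no Abf1 cells, against 523 and 486 CPM in wild-type Abf1 cells (log2 fold change −2.20 ± 0.26 (SE), adjusted p = 0.000756, edgeR). MES1, the methionyl-tRNA synthetase, had 91.2, 122 and 113 CPM without Abf1, against 376 and 406 CPM with wild-type Abf1 (log2 fold change −1.85 ± 0.21 (SE), adjusted p = 0.000756). In both genes every no Abf1 library lay well below either wild-type library, though being below was a condition of their choice. Of 43 translation initiation, elongation and release factors 14 fell and 1 rose (median −0.32). SUP35 averaged 74.7 ± 1.38 CPM in no Abf1 cells (SD, n = 3) and 397 ± 63.7 CPM in wild-type Abf1 cells (SD, n = 2). HCR1, a substoichiometric component of initiation factor eIF3, had 24.1, 21.5 and 30.8 CPM without Abf1, against 89.7 and 112 CPM with wild-type Abf1 (log2 fold change −1.99 ± 0.27 (SE), adjusted p = 0.00103). TIF1, one of a pair of genes for the same eIF4A protein, had 23.1, 22.5 and 21.6 CPM without Abf1, against 258 and 286 CPM with wild-type Abf1 (log2 fold change −3.60 ± 0.57 (SE), adjusted p = 0.00176). Its copy TIF2 makes the values of TIF1 uncertain. The count of falls for this list was 11, 8, 9, 15 and 6 with each library left out.

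RNA polymerase subunit genes fell about as often as other genes with or without a match. Of 16 with a match 8 fell (median −0.96), and of 15 without a match none did (median −0.32), although 2 had an unadjusted p under 0.05. Over all nuclear genes the shares were 45.7% with a match and 7.60% without. None of the 31 rose. RPO31, the largest subunit of RNA polymerase III, had 62.1, 79.6 and 63.7 CPM in no Abf1 cells, against 272 and 330 CPM in wild-type Abf1 cells (log2 fold change −2.13 ± 0.27 (SE), adjusted p = 0.000825, edgeR). RPC40, a subunit common to polymerases I and III, had 63.1, 48.7 and 40.1 CPM without Abf1, against 158 and 182 CPM with wild-type Abf1 (log2 fold change −1.75 ± 0.27 (SE), adjusted p = 0.00144). RPO31 was unusual in where its 2 matches lay, at 348 and 366 bp, where a smaller share of genes fell. The count of falls was 5, 6, 8, 8 and 2 with each library left out, so 2 were called against the 60 min library alone.

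Nuclear genes of the mitochondrion showed no common direction, and the members with a match were lower in each list that could be split. Of 38 genes of protein import 8 fell, all among the 16 with a match (median −0.72 with and −0.03 without, where 1 gene was lower at an unadjusted p under 0.05). TOM70 had 40.1, 45 and 46.2 CPM in no Abf1 cells, against 158 and 231 CPM in wild-type Abf1 cells (log2 fold change −2.15 ± 0.25 (SE), adjusted p = 0.000756, edgeR). MGE1, the nucleotide exchange factor of the mitochondrial Hsp70 motor, had 5.01, 6.56 and 7.19 CPM without Abf1, against 93.9 and 100 CPM with wild-type Abf1 (log2 fold change −3.94 ± 0.51 (SE), adjusted p = 0.000869). MDJ1, a mitochondrial co-chaperone of the same Hsp70 with no match, was higher at 277, 312 and 302 CPM without Abf1, against 164 and 157 CPM with wild-type Abf1 (log2 fold change 0.89 ± 0.17 (SE), adjusted p = 0.00403). MGE1 and MDJ1, partners of the same Hsp70, thus moved in opposite directions. The mitochondrial ribosomal proteins had medians of −0.91 with and 0.25 without a match in the large subunit, and −0.57 and 0.33 in the small subunit. Of their nuclear genes, 8 of 45 and 6 of 34 fell. Counts of falls were 6, 5, 6, 5 and 2 for import, 3, 7, 6, 2 and 2 for the large and 4, 4, 3, 3 and 1 for the small mitochondrial subunit with each library left out.

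Respiratory chain and ATP synthase genes followed the same pattern, with 5 of 10 falling where there was a match (median −0.88). Of the 34 without a match none fell (2 at an unadjusted p under 0.05) and 6 rose (median 0.41). ATP16, the delta subunit of the ATP synthase rotor, had 20.1, 18.7 and 14.4 CPM in no Abf1 cells, against 96.4 and 76.6 CPM in wild-type Abf1 cells (log2 fold change −2.28 ± 0.44 (SE), adjusted p = 0.00442, edgeR). NDE2, an external NADH dehydrogenase of the inner membrane, had 96.2, 123 and 143 CPM without Abf1, against 15.1 and 13.9 CPM with wild-type Abf1 (log2 fold change 3.05 ± 0.50 (SE), adjusted p = 0.00211). In the tricarboxylic acid cycle 3 of 25 genes fell and 4 rose, with 2, 2, 2, 2 and 2 falls and 3, 2, 2, 5 and 0 rises with each library left out, the 75 min library last. LPD1, the dihydrolipoamide dehydrogenase of that cycle, fell by 1.19 on the log2 scale with 2 matches. CIT1 and CIT2, the mitochondrial and peroxisomal citrate synthases, rose (0.82 ± 0.19 and 1.15 ± 0.25), and neither was called without the 75 min library. The rises of the respiratory list were 4, 2, 3, 10 and 1 with each library left out, and its falls 4, 4, 5, 1 and 3. Its median was −0.07 against the 60 min library and 0.58 against the 75 min library.

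Protein folding and breakdown machines split within themselves. In the cytosolic chaperonin CCT and prefoldin, which fold actin and tubulin, 6 of the 8 genes with a match fell (median −1.12) and none of the 7 without (median 0.05). CCT5 had 51.1, 54.3 and 45.2 CPM in no Abf1 cells, against 239 and 252 CPM in wild-type Abf1 cells (log2 fold change −2.29 ± 0.33 (SE), adjusted p = 0.00124, edgeR). CCT8 had 89.2, 89 and 97.6 CPM without Abf1, against 248 and 238 CPM with wild-type Abf1 (log2 fold change −1.40 ± 0.19 (SE), adjusted p = 0.0011). The count of falls was 5, 5, 6, 5 and 3 with each library left out.

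Proteasome genes took both directions. Of 33 subunit genes, 16 had a match, of which 8 fell and 1 rose (median −0.52), and of the 17 without a match none fell and 11 rose (median 0.66). The list also held the assembly factors RPN14 and UMP1, which were not called, and the activator RPN4. SCL1, an alpha-ring subunit of the core particle, had 23.1, 26.2 and 15.4 CPM in no Abf1 cells, against 97.3 and 120 CPM in wild-type Abf1 cells (log2 fold change −2.33 ± 0.41 (SE), adjusted p = 0.0027, edgeR). RPN9, a lid subunit of the regulatory particle with no match, had 266, 238 and 242 CPM without Abf1, against 142 and 125 CPM with wild-type Abf1 (log2 fold change 0.90 ± 0.20 (SE), adjusted p = 0.00897) and was not called without the 75 min library. RPN4, the activator that turns on proteasome genes, rose as well, at 341, 320 and 361 CPM without Abf1, against 119 and 137 CPM with wild-type Abf1 (log2 fold change 1.41 ± 0.24 (SE), adjusted p = 0.00245). With RPN4, RPN14 and UMP1 the list held 13 rises, and 8, 6, 5, 9 and 1 with each library left out, the 1 without the 75 min library being RPN4. The falls were 5, 5, 5, 5 and 5.

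Heat shock proteins and chaperones rose in 16 of 33 cases and fell in 5 (median 0.53). All 16 rises were among the 26 genes with no match (median 0.78), and the 7 with a match had a median of −0.77. HSP26, a small heat shock protein that holds unfolded proteins, had 445, 529 and 544 CPM in no Abf1 cells, against 104 and 128 CPM in wild-type Abf1 cells (log2 fold change 2.12 ± 0.37 (SE), adjusted p = 0.00258, edgeR). SSA4, an inducible Hsp70, had 835, 897 and 826 CPM without Abf1, against 167 and 260 CPM with wild-type Abf1 (log2 fold change 1.99 ± 0.36 (SE), adjusted p = 0.00301). SSE2, an Hsp110 that serves Hsp70 proteins as exchange factor and has 2 matches, moved the other way at 52.1, 62.8 and 71.9 CPM without Abf1, against 242 and 219 CPM with wild-type Abf1 (log2 fold change −1.89 ± 0.23 (SE), adjusted p = 0.000756). For all 3 genes the groups lay apart, as their choice required. HSP12, a membrane-stabilising protein, had 2572, 3188 and 2991 CPM without Abf1, against 415 and 354 CPM with wild-type Abf1 (log2 fold change 2.92 ± 0.81 (SE), adjusted p = 0.0228), and lost the call without no Abf1 replicate 2 or 3 or without either wild-type library. The rises of the list were 13, 12, 12, 12 and 10 and the falls 3, 2, 2, 4 and 2 with each library left out.

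**Figure D4:**
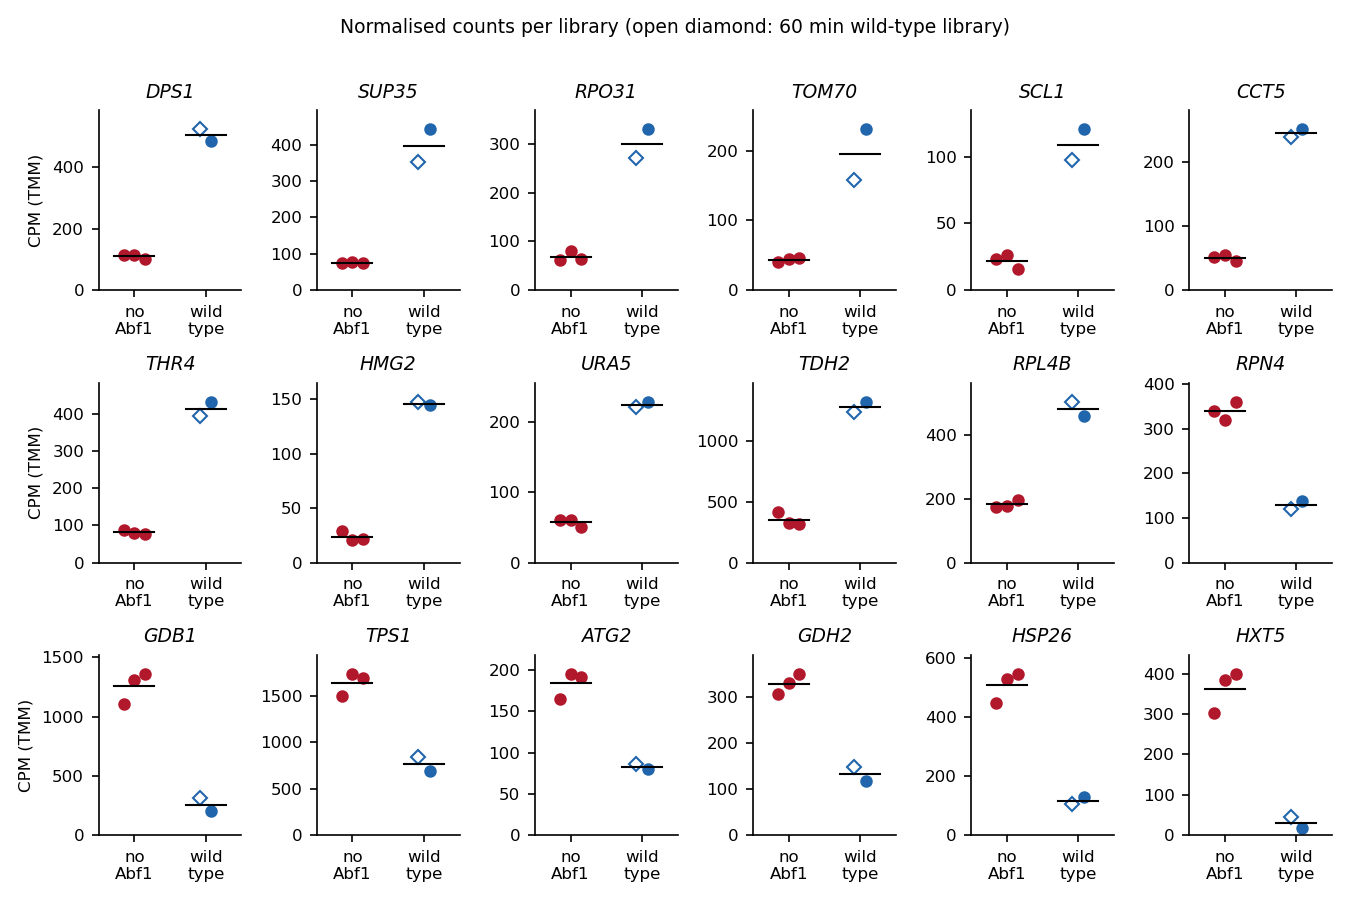
TMM-normalised CPM in each library for 18 genes, with no Abf1 replicates in red on the left and wild-type Abf1 libraries in blue on the right of each panel (open diamond, 60 min library), and group means as bars; axes start at 0. The 3 no Abf1 libraries lay below both wild-type libraries from DPS1 to RPL4B and above them from RPN4 to HXT5, as the choice of genes required.

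Genes of storage, stress and nutrient scarcity rose more often than the 10.1% of all features. With earlier results known, 10 lists of stress, reserve carbohydrate, hexose transport, gluconeogenesis, pentose phosphate, autophagy and peroxisome genes were pooled. The pool left out CCT chaperonin and prefoldin (6 of 15 fell, 0 rose) and glycolysis and fermentation (4 of 23 fell, 2 rose). Of its 227 genes 93 rose and 12 fell. The rises numbered 71, 54, 58, 76 and 31 with each library left out, so 31 without the 75 min library. Hydrophilins and stationary-phase genes, which protect resting and dried cells, rose in 12 of 18 cases and fell in none (median 1.61; 12, 11, 11, 12 and 5 with each library left out, the 75 min library last). HBT1, a hydrophilin needed for normal shape in mating, had 1188, 1637 and 1600 CPM in no Abf1 cells, against 167 and 92.6 CPM in wild-type Abf1 cells (log2 fold change 3.51 ± 0.60 (SE), adjusted p = 0.00224, edgeR). GRE1, a hydrophilin induced by osmotic stress, had 133, 182 and 195 CPM without Abf1, against 20.1 and 7.66 CPM with wild-type Abf1 (log2 fold change 3.65 ± 0.70 (SE), adjusted p = 0.00412), and was not called without the 75 min library. The level differed between the wild-type libraries as well, and was lower in the 75 min library for both genes.

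Reserve carbohydrate genes rose together. Glycogen metabolism had 8 rises among 17 genes and no fall (median 0.85), and trehalose metabolism 4 among 7 and no fall (median 1.03). GDB1, with a match at 359 bp, had 1104, 1306 and 1358 CPM in no Abf1 cells, against 309 and 203 CPM in wild-type Abf1 cells (log2 fold change 2.30 ± 0.43 (SE), adjusted p = 0.00366, edgeR). GAC1, which directs a protein phosphatase to glycogen synthase, had 281, 350 and 335 CPM without Abf1, against 110 and 92 CPM with wild-type Abf1 (log2 fold change 1.68 ± 0.33 (SE), adjusted p = 0.00442). TPS1, the trehalose-6-phosphate synthase, had 1501, 1736 and 1692 CPM without Abf1, against 842 and 690 CPM with wild-type Abf1 (log2 fold change 1.10 ± 0.24 (SE), adjusted p = 0.00752), and lost the call without the 75 min library. The counts of rises were 4, 3, 3, 7 and 2 for glycogen and 3, 2, 2, 4 and 0 for trehalose with each library left out.

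In central carbon metabolism, isoforms of one enzyme moved apart. In the pentose phosphate pathway TKL2, the minor transketolase, had 363, 488 and 480 CPM in no Abf1 cells, against 39.4 and 19.5 CPM in wild-type Abf1 cells (log2 fold change 3.93 ± 0.69 (SE), adjusted p = 0.0027, edgeR), the largest rise among genes averaging 50 or more counts. GND1, the major 6-phosphogluconate dehydrogenase, fell (312, 271 and 244 CPM without Abf1, against 608 and 631 CPM with wild-type Abf1; log2 fold change −1.17 ± 0.18 (SE), adjusted p = 0.00149). Its minor isoform GND2 rose (2.77 ± 0.58), though not without the 75 min library. For acetyl-CoA synthetase, ACS1 had 187, 274 and 354 CPM without Abf1, against 39.4 and 16 CPM with wild-type Abf1 (log2 fold change 3.32 ± 0.58 (SE), adjusted p = 0.00255) and ACS2, the isoform used in glucose with a match at 145 bp, had 350, 347 and 329 CPM without Abf1, against 502 and 550 CPM with wild-type Abf1 (log2 fold change −0.62 ± 0.17 (SE), adjusted p = 0.0223). The call of ACS2 was lost without any 1 of the no Abf1 replicates or without the 75 min library. In glycolysis TDH2, a glyceraldehyde-3-phosphate dehydrogenase with near-identical copies, had 420, 324 and 322 CPM without Abf1, against 1243 and 1328 CPM with wild-type Abf1 (log2 fold change −1.85 ± 0.23 (SE), adjusted p = 0.000756), and 4 of 23 genes fell and 2 rose. The falls of this list were 3, 3, 2, 5 and 4 and the rises 1, 0, 0, 1 and 0 with each library left out.

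Sugar uptake and gluconeogenesis rose: 5 of 9 hexose transporters (median 0.77) and 5 of 9 gluconeogenesis and glyoxylate cycle genes, with 1 fall (median 1.04). These were the genes tested, out of 19 transporters and 14 genes of the second list, and the rest had too few counts. HXT5, a transporter of slow or starved growth, had 303, 385 and 399 CPM in no Abf1 cells, against 43.6 and 16.7 CPM in wild-type Abf1 cells (log2 fold change 3.61 ± 0.59 (SE), adjusted p = 0.00202, edgeR). HXT1, the low-affinity transporter of high glucose, rose too (1.05 ± 0.26), but not without the 75 min library. The counts of rises were 3, 2, 2, 4 and 1 for the transporters and 5, 2, 2, 3 and 1 for gluconeogenesis with each library left out. For the pentose phosphate pathway they were 4, 4, 4, 4 and 2.

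Autophagy and vacuolar protease genes, which recycle cell contents, rose in 19 of 47 cases with no fall (median 0.66), and 46 of the 47 had no match. ATG2, a lipid transfer protein of the growing autophagosome, had 165, 195 and 191 CPM in no Abf1 cells, against 86.4 and 79.4 CPM in wild-type Abf1 cells (log2 fold change 1.15 ± 0.18 (SE), adjusted p = 0.00165, edgeR). ATG41, which acts in autophagosome formation, had 267, 235 and 225 CPM without Abf1, against 94.8 and 132 CPM with wild-type Abf1 (log2 fold change 1.09 ± 0.17 (SE), adjusted p = 0.00171). This list depended on the libraries more than most, with 11, 6, 7, 13 and 2 rises with each library left out, the 75 min library last. Oxidative stress and redox enzymes rose in 11 of 35 cases and fell in 3 (median 0.24; 8, 6, 7, 11 and 3 rises with each library left out). ALD3, a stress-induced aldehyde dehydrogenase, had 684, 820 and 901 CPM without Abf1, against 216 and 116 CPM with wild-type Abf1 (log2 fold change 2.28 ± 0.39 (SE), adjusted p = 0.00234). TRX1, a cytosolic thioredoxin, fell (−1.40 ± 0.30), and was not called without the 60 min library. Peroxisome and fatty acid oxidation genes rose in 9 of 42 cases and fell in 1 (median 0.30; 9, 6, 8, 6 and 5 rises). YAT2, a carnitine acetyltransferase, had 181, 238 and 316 CPM without Abf1, against 71.3 and 82.2 CPM with wild-type Abf1 (log2 fold change 1.67 ± 0.31 (SE), adjusted p = 0.00357).

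Amino acid synthesis fell, but not in every branch. Serine, glycine, glutamate and proline synthesis had 12 falls among 22 genes (median −0.65). Branched-chain synthesis had 5 among 12 (median −0.55) and aromatic and histidine synthesis 8 among 20 (median −0.22), while methionine, cysteine and threonine synthesis had 5 among 30 (median −0.03). PRO3, which makes proline from its cyclic precursor, had 7.02, 5.62 and 6.17 CPM in no Abf1 cells, against 149 and 160 CPM in wild-type Abf1 cells (log2 fold change −4.61 ± 0.63 (SE), adjusted p = 0.00108, edgeR). This was the largest fall among genes averaging 50 or more counts, and the nearest match upstream of PRO3 lay 7042 bp away. TRP3, of tryptophan synthesis, had 15, 12.2 and 11.3 CPM without Abf1, against 138 and 116 CPM with wild-type Abf1 (log2 fold change −3.30 ± 0.60 (SE), adjusted p = 0.00304), with a match at 170 bp. THR4 had 88.2, 78.7 and 77.1 CPM without Abf1, against 395 and 433 CPM with wild-type Abf1 (log2 fold change −2.35 ± 0.33 (SE), adjusted p = 0.0011). For all 3 genes every no Abf1 library lay far below either wild-type library, though being below was a condition of their choice.

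ASN1, GLN1 and ILV5 also fell, by less than PRO3, TRP3 and THR4. Like PRO3, they had no match in the window. ASN1, an asparagine synthetase, had 337, 323 and 294 CPM in no Abf1 cells, against 924 and 751 CPM in wild-type Abf1 cells (log2 fold change −1.40 ± 0.17 (SE), adjusted p = 0.000756, edgeR). GLN1, the glutamine synthetase, had 357, 400 and 367 CPM without Abf1, against 1171 and 636 CPM with wild-type Abf1 (log2 fold change −1.27 ± 0.22 (SE), adjusted p = 0.00251), and ILV5, of valine and isoleucine synthesis, had 569, 536 and 486 CPM without Abf1, against 898 and 1356 CPM with wild-type Abf1 (log2 fold change −1.09 ± 0.20 (SE), adjusted p = 0.00347). The counts of falls were 9, 7, 7, 5 and 8 for the serine to proline list with each library left out, no Abf1 replicates first and the 75 min library last. They were 4, 4, 3, 4 and 2 for the branched-chain list and 6, 6, 6, 8 and 6 for the aromatic and histidine list. Of 18 genes of arginine and lysine synthesis 1 fell and none rose.

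Nucleotide synthesis fell, mostly at genes without a match. Among 20 purine genes 10 fell (median −0.71), and 18 of the 20 had no match. ADE17, of the last steps of purine synthesis, had 60.1, 50.6 and 45.2 CPM in no Abf1 cells, against 574 and 158 CPM in wild-type Abf1 cells (log2 fold change −2.81 ± 0.42 (SE), adjusted p = 0.0014, edgeR), and the wild-type libraries themselves lay far apart. MTD1, a folate enzyme that supplies purine synthesis, had 32.1, 47.8 and 41.1 CPM without Abf1, against 215 and 48.1 CPM with wild-type Abf1 (log2 fold change −1.68 ± 0.51 (SE), adjusted p = 0.0317). It was near the 75 min library, and lost its call without the 60 min library or without any 1 of the no Abf1 replicates. The purine count was 8, 6, 6, 4 and 10 with each library left out, so 4 were called without the 60 min library. Pyrimidine and deoxynucleotide genes had 4 falls among 18 (median −0.44). URA5, an orotate phosphoribosyltransferase, had 61.1, 59.95 and 50.4 CPM without Abf1, against 221 and 228 CPM with wild-type Abf1 (log2 fold change −1.97 ± 0.27 (SE), adjusted p = 0.00107, edgeR), close in all replicates of a group. The nearest match upstream of URA5 lay at 405 bp, just beyond the 400 bp window. URA4, the dihydroorotase, had a log2 fold change of −1.04 ± 0.18.

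Lipid genes fell in synthesis. Ergosterol synthesis had 9 falls and no rise among 26 genes (median −0.45; 9, 8, 8, 10 and 3 with each library left out, 3 without the 75 min library). Fatty acid synthesis and elongation had 7 among 14 (median −0.54; 3, 3, 3, 3 and 3). HMG2, an HMG-CoA reductase isoform with a match at 284 bp, had 29.1, 20.6 and 21.6 CPM in no Abf1 cells, against 148 and 144 CPM in wild-type Abf1 cells (log2 fold change −2.62 ± 0.38 (SE), adjusted p = 0.00128, edgeR). ERG10, which starts the same pathway, had 123, 121 and 103 CPM without Abf1, against 258 and 266 CPM with wild-type Abf1 (log2 fold change −1.18 ± 0.22 (SE), adjusted p = 0.00385). FAA4, an acyl-CoA synthetase with no match, had 166, 186 and 174 CPM without Abf1, against 397 and 463 CPM with wild-type Abf1 (log2 fold change −1.29 ± 0.21 (SE), adjusted p = 0.00211). In phospholipid synthesis 7 of 27 genes fell and 2 rose (median −0.16). CHO1, the phosphatidylserine synthase with a match at 191 bp, had 12, 15.9 and 14.4 CPM without Abf1, against 200 and 181 CPM with wild-type Abf1 (log2 fold change −3.75 ± 0.45 (SE), adjusted p = 0.000756). GPT2, an acyltransferase of the first step of glycerolipid synthesis with no match, had 352, 432 and 424 CPM without Abf1, against 169 and 128 CPM with wild-type Abf1 (log2 fold change 1.44 ± 0.21 (SE), adjusted p = 0.00133). The phospholipid falls numbered 6, 4, 5, 6 and 3 with each library left out.

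Genes of the secretory pathway fell about as often as all features (14%), and the genes that fell in these 2 lists had a match. Of 37 genes of ER translocation and N-glycosylation 6 fell and 1 rose. The 6 were among the 8 with a match (median −1.12). The 29 without had a median of 0.02, and 3 of them were lower at an unadjusted edgeR p under 0.05. The rise was ALG6 (log2 fold change 0.42, adjusted p = 0.0497, edgeR). DESeq2 did not call ALG6, and it lost the call without any 1 of the no Abf1 replicates. SEC53, a phosphomannomutase of sugar donor synthesis, had 71.2, 57.1 and 88.4 CPM in no Abf1 cells, against 304 and 313 CPM in wild-type Abf1 cells (log2 fold change −2.10 ± 0.33 (SE), adjusted p = 0.0017, edgeR). In COPI, COPII and Golgi genes 4 of 27 fell and 1 rose. SEC16 had 47.1, 61.8 and 64.7 CPM without Abf1, against 397 and 483 CPM with wild-type Abf1 (log2 fold change −2.92 ± 0.38 (SE), adjusted p = 0.000869) and ERV25, a cargo receptor of COPII vesicles, had 23.1, 26.2 and 38 CPM without Abf1, against 149 and 138 CPM with wild-type Abf1 (log2 fold change −2.30 ± 0.36 (SE), adjusted p = 0.00161). ERV14, another COPII cargo receptor, with its match at 368 bp, rose to 192, 154 and 157 CPM without Abf1, against 84.7 and 75.9 CPM with wild-type Abf1 (log2 fold change 1.06 ± 0.16 (SE), adjusted p = 0.0014). Counts for these lists changed little, at 6, 7, 6, 5 and 5 and 4, 4, 4, 4 and 4 falls with each library left out.

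In RNA processing and chromatin remodeler lists most genes that fell had a match. The shares that fell were 7.14% in splicing, 21.4% in mRNA decay and 18% in remodelers, against 14% of all features. In pre-mRNA splicing 4 of the 12 genes with a match fell and none of the 44 without, of which 5 were lower at an unadjusted p under 0.05. PRP8, at the catalytic core of the spliceosome, had 132, 121 and 116 CPM in no Abf1 cells, against 330 and 348 CPM in wild-type Abf1 cells (log2 fold change −1.46 ± 0.22 (SE), adjusted p = 0.0014, edgeR), and the helicase BRR2 had a log2 fold change of −1.63 ± 0.17. In cleavage, polyadenylation and mRNA decay 9 of 42 fell and 1 rose. SKI2, the helicase of the cytoplasmic exosome, had 38.1, 40.3 and 42.1 CPM without Abf1, against 136 and 166 CPM with wild-type Abf1 (log2 fold change −1.91 ± 0.32 (SE), adjusted p = 0.00213). NAM7 (UPF1), the helicase of nonsense-mediated decay with no match in the window and the nearest at 702 bp, had 75.2, 63.7 and 56.5 CPM without Abf1, against 140 and 169 CPM with wild-type Abf1 (log2 fold change −1.25 ± 0.20 (SE), adjusted p = 0.00163). Among chromatin remodelers 8 of the 15 genes with a match fell, and of the 35 without a match 1 fell and 2 rose. ARP5, a subunit of the INO80 remodeler, had 25.1, 26.2 and 21.6 CPM without Abf1, against 73.8 and 94 CPM with wild-type Abf1 (log2 fold change −1.79 ± 0.25 (SE), adjusted p = 0.00124), and the ATPase ISW2 had a log2 fold change of −1.26 ± 0.24. Falls were 6, 4, 7, 6 and 4 for mRNA decay and 6, 6, 5, 6 and 6 for remodelers with each library left out.

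Several classes showed little. No histone gene of 10 was called (median 0.10), nor any of 21 iron uptake genes (median 0.29), in the edgeR test or by DESeq2. At an unadjusted p under 0.05, 1 histone gene was higher, and 4 iron genes were higher and 1 lower. Without the 60 min library 2 iron genes were called lower, and without the 75 min library 2 were called higher. In DNA replication 4 of 47 fell (median −0.20; 2, 3, 2, 4 and 2 with each library left out), and among cyclins and cell cycle kinases 4 of 29 fell and 1 rose (2, 3, 3, 6 and 1 falls). Nitrogen catabolite repression genes, which respond to rapamycin through the TOR pathway, rose in 4 of 21 cases and fell in 1 (median 0.22; 4, 3, 2, 3 and 1 rises). GDH2, the catabolic glutamate dehydrogenase, had 306, 330 and 348 CPM in no Abf1 cells, against 147 and 117 CPM in wild-type Abf1 cells (log2 fold change 1.32 ± 0.25 (SE), adjusted p = 0.00406, edgeR). Both groups received rapamycin, and the rapamycin-binding protein FPR1 had 2 to 9 counts in the 5 libraries. Whether rapamycin acted on the TOR pathway in these cells was not tested. The median of the nitrogen list was −0.33 against the 60 min library and 0.45 against the 75 min library.

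Small nucleolar RNAs and the genes of the mitochondrial genome differed widely between the wild-type libraries. The 59 small nucleolar RNAs tested had a median difference of −0.63 on the log2 scale from the 60 min library and 0.81 from the 75 min library, and 2 were called, both lower. The 7 protein genes of the mitochondrial genome had −0.27 and 1.02 and none was called in edgeR over both libraries, although 4 were called higher without the 60 min library and 1 lower without the 75 min library. No direction is given for these classes. The part of time, batch and library preparation in these differences was not tested.

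**Figure D5:**
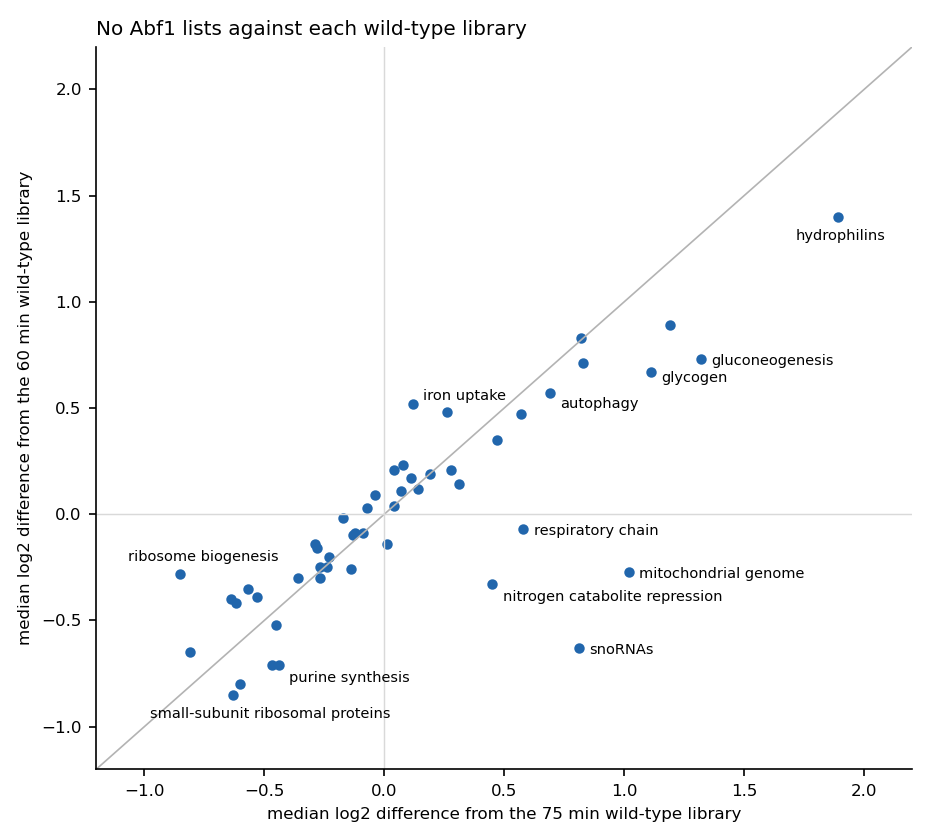
Median log2 difference of no Abf1 cells from the 75 min (horizontal) and the 60 min (vertical) wild-type library, with 1 point per gene list plus small nucleolar RNAs; the diagonal marks equal values. Hydrophilins were at 1.89 and 1.40, ribosome biogenesis at −0.85 and −0.28, and small nucleolar RNAs at 0.81 and −0.63, on opposite sides of 0.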

How the data were processed

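Total RNA of the 5 libraries described, and of 6 libraries of other Abf1 constructs that entered the fit only for their spread, was made into libraries with a directional kit. Reads were aligned by the authors to sacCer3 (R64-1-1) with STAR and quantified with RSEM. The deposited files give, for 6834 features, counts without normalization, which are whole numbers, and the authors' TPM values. Whether the counting used strand is not given in the sources used here, so overlapping and antisense genes are uncertain. Of the features, 5991 matched the R64 annotation of RefSeq and 843 did not. Some features are not analysed here.

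Counts were tested in edgeR 4.0.16 (R 4.3.3; TMM, glmQLFit and glmQLFTest, Benjamini-Hochberg adjustment over 5328 features) with a coefficient per condition over 11 libraries. The common biological coefficient of variation was 0.17. Adjusted p-values in the text are from this test, and fold changes are no Abf1 over wild-type Abf1. The SE was derived from this test, as the absolute log2 fold change over the square root of its F statistic. It thus restates the test and is no separate measure of the spread between libraries. CPM used TMM library sizes. No spike-in is described, so values are relative to all RNA counted. Alternatives were DESeq2 1.42.0, RLE size factors, TMM on coding genes without a match, other count filters, a fit of the 5 libraries, a 250 bp promoter, each library left out, and limma 3.58.1 on log2(TPM + 1) and log2(TPM + 0.1). Where an arm was left with 1 library, it was assumed to vary like the others. The script was tested on simulated data.

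Named genes were the 8 largest rises and falls averaging 50 or more counts whose groups did not overlap, up to 4 such genes per list, strain genes, and 6 divergent pairs. The members and lists were chosen with earlier results of these data known, and no list was tested as a set. Python 3.11.15, pandas 2.3.3, numpy 2.4.6 and matplotlib 3.10.9 were used for promoters and plots. The depth, 1015399 to 1422833 counts per library, limits the precision for weakly expressed genes.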

Additional observations from a re-analysis of the deposited data

How the results depend on the processing

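Of the 1280 calls, 536 were rises and 744 falls. On deposited TPM, limma called 137 features (39 higher, 98 lower) on log2(TPM + 1) and 294 (76 higher, 218 lower) on log2(TPM + 0.1), with 68 and 168 falls at genes with a match and 34 and 70 rises at genes without one. Leaving out a library gave 537 to 1044 calls, 98 to 454 rises, 439 to 590 falls, 229 to 319 falls at genes with a match and 88 to 377 rises at genes without. The lowest of each came without the 75 min wild-type library. Those without no Abf1 replicate 2 or 3 (707 and 718 calls) were also more than 1.5 times below the full count. TMM on genes without a match, RLE, other count filters, DESeq2 (1147 calls), the 250 bp promoter (345 falls at genes with a match) and the fit of 5 libraries (1742 calls) kept these counts within 1.5 times. The share of rises among calls was 41.9% as reported, 30.8% with TMM on genes without a match, 28.5% and 25.9% on TPM and 18.2% without the 75 min library. Of 140 named genes called, none reversed, and 80 kept the call under every alternative on counts. The limma alternatives dropped 94 and 76 of them; the cause was not tested. With 1015399 to 1422833 counts a library, small changes of weakly expressed genes were not detectable. No paired analysis was possible because the labels give the 2 wild-type Abf1 libraries no replicate numbers. A term for batch date gives no more than leaving out the 60 min library, the only library of its date.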
